A study of Mus musculus with 26 samples.

Results

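*Decr1*, *Bicd1* and *Mageh1* are 3 genes that were expressed in wild-type (WT) mouse embryonic fibroblasts (MEFs) and listed at 0 counts in both RNA-Seq libraries of ATRXΔRBR MEFs. They were chosen by those values, with the limit set at over 100 estimated counts in each WT library and 0 in each ATRXΔRBR library. Of the 53801 genes in the RNA-Seq files, 9480 had over 100 counts in each WT library, and 4 met both limits. The fourth, *Epb41l3*, which encodes a membrane-cytoskeleton linker protein, is not among the 3 genes and is given beside them. No gene showed the mirror pattern of 0 counts in both WT libraries and over 100 in each ATRXΔRBR library.

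ATRX is a chromatin remodeler that binds RNA. All cells were female MEFs from a parental line, grown in the same medium, and carried either endogenous ATRX (WT), a CRISPR-Cas9 deletion of the RNA-binding region (RBR) of endogenous ATRX (ATRXΔRBR), or an shRNA against *Atrx* after puromycin selection (ATRX KD). The ATRXΔRBR cells are a clone, so differences carried by that clone cannot be told apart from the deletion. RNA-Seq was available from 2 libraries of each genotype. CUT&RUN, which releases and sequences antibody-bound chromatin fragments, was represented by 16 peak lists, 2 each for EZH2 and H3K27me3 in the 3 genotypes and 2 each for ATRX in WT and ATRXΔRBR. EZH2 is the enzyme of Polycomb repressive complex 2 (PRC2) that places the repressive mark H3K27me3.

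*Decr1* encodes the mitochondrial 2,4-dienoyl-CoA reductase, an auxiliary enzyme that lets the β-oxidation of unsaturated fatty acids proceed past their double bonds. *Bicd1* encodes a bicaudal D coiled-coil adaptor that links the minus-end motor dynein and its partner dynactin to cargo such as Rab6 vesicles. *Mageh1* is an X-linked member of the MAGE family, whose proteins share a MAGE homology domain and in several cases bind RING-type ubiquitin ligases. H3K27me3 over a gene is associated with a silent state, and in female cells it also covers much of the inactive X chromosome.

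By GENCODE M21 on GRCm38, *Decr1* (ENSMUSG00000028223) lies on the minus strand at chr4:15917240-15945507, *Bicd1* (ENSMUSG00000003452) on the plus strand at chr6:149408886-149563329, and *Mageh1* (ENSMUSG00000047238) on the minus strand at chrX:153036166-153037575. All are protein-coding, and their annotated spans were 28268, 154444 and 1410 bp. They lie on 3 different chromosomes and share no neighbourhood.

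RefSeq promoters on GRCm38.p6 were found for 2 of the 3 genes, *Bicd1* and *Mageh1*. The stretches before the start are shown because H3K27me3 peaks flanked the *Mageh1* start in WT, whereas no peak of any list lay near the *Bicd1* start. They run 5′ to 3′ on the gene's strand, with capitals for matches, on either strand, to the box CCAAT, the GC box GGGCGG or the ETS-type core CGGAAG. The *Bicd1* run of 152 bases is chr6:149408734-149408885 on the plus strand and ends where the GENCODE gene begins. The *Mageh1* run of 250 bases is chrX:153037564-153037813 on the minus strand and ends at the RefSeq start.
Bicd1 promoter: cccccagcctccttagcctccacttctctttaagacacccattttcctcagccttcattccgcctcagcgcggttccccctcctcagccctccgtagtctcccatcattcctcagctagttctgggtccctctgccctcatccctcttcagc
Mageh1 promoter: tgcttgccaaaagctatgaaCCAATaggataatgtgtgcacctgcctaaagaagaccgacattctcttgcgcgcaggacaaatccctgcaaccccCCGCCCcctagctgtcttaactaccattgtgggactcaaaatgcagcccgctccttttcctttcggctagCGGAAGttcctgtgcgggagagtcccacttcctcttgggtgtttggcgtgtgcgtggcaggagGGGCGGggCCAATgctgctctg

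Both promoters had more G and C than most, and they differed in CG dinucleotides. Over the 300 bases that RefSeq tabulates around each start, GC content was 60.3% for *Bicd1* and 58.0% for *Mageh1*, against a median of 52.7% over 32851 mouse promoters. *Bicd1* had 10 CG dinucleotides, an observed over expected ratio of 0.39 that was close to the median of 0.384. *Mageh1* had 18, a ratio of 0.713 that exceeded that of 72.0% of promoters. The *Mageh1* window held CCAAT, which 37.4% of all promoters hold, GGGCGG, which 35.7% hold, and CGGAAG, which 16.9% hold. Neither window held the TATA box TATAAA (13.6% of promoters), the NRF1-type motif GCATGCGC (2.71%) or the CRE motif TGACGTCA (1.79%), and the *Bicd1* window held none of the 6 motifs. These matches describe the letters of the windows and do not mark binding sites.

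The RNA-Seq libraries held between 9051693 and 21723647 estimated counts, so that 3 counts correspond to between 0.138 and 0.331 CPM (counts scaled to a common library total). Same-numbered libraries are not stated to have been made together, and libraries of a genotype are described as biological replicates without a statement on separate cultures, so p-values measure only the spread between these libraries. Of 15 fibroblast markers, 2 were at 0 in WT, 1 in ATRXΔRBR and 3 in ATRX KD, with *Thy1* at 0 throughout. Their summed level was 14361 to 18359 CPM in WT, 22743 to 23242 in ATRXΔRBR and 19202 to 20271 in ATRX KD. The summed epithelial, endothelial, leukocyte and muscle markers stayed at or under 11.2 CPM in every library. The 5 pluripotency markers summed to 37.6 to 48.2 CPM in WT, 18.0 to 18.7 in ATRXΔRBR and 0.506 to 0.994 in ATRX KD. *Pou5f1*, *Zfp42* and *Dppa5a* were at 0 in all libraries, so the sum held only *Nanog* and *Sox2*, and in ATRX KD *Sox2* alone. The part of this difference in the results was not tested. *Atrx* RNA was at 621 and 438 CPM in WT cells, 369 and 313 in ATRXΔRBR cells, and 416 and 547 in the libraries labelled ATRX KD. In those last libraries, *Atrx* RNA overlapped that of WT in CPM and no difference passed the test (log2 fold change −0.15 ± 0.21 SE, edgeR quasi-likelihood test with Benjamini-Hochberg adjusted p = 0.605). In TPM, the length-scaled unit of RSEM, it was at 331 and 512 there and at 233 and 141 in WT, so that both values lay above WT, against the label. The effective length of *Atrx* by which TPM divides was 2803 and 2368 bases there and 4937 and 6255 in WT. ATRX KD is therefore used as the label of these libraries and not as a measured loss of *Atrx* RNA. At the protein level, the paper describes ATRX as depleted in its knockdown MEFs and shows a western blot. RNA values do not measure that protein. ATRX KD and WT raw files have names of different forms, whereas WT and ATRXΔRBR files name the same sequencing run, so a batch and the knockdown cannot be told apart.

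The 3 genes were moderately expressed in WT and had no counted read in ATRXΔRBR, and in ATRX KD they took 3 different courses. In ATRXΔRBR, 6.85% of all genes tested were called, 4.07% lower, and nothing is read from the 3 genes there because those counts chose them. In ATRX KD, 2 of the 3 passed the test, where 33.0% of all genes did. That share of all genes ran from 20.7% without ATRX KD replicate 2 and 21.6% without replicate 1 to 55.8% without WT replicate 2, and without WT replicate 1 it was 7942 of 15894 genes. *Decr1* was higher than WT in ATRX KD, *Bicd1* was at a lower level that did not pass the test, and *Mageh1* was at 0 there as well. In bulk RNA, fewer cells that express a gene and less RNA per cell cannot be told apart.

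*Decr1* had 241 and 231 estimated counts in WT cells, 0 and 0 in ATRXΔRBR cells, and 497 and 930 in ATRX KD cells. Relative to the library, this was 18.1 and 19.5 CPM in WT and 54.9 and 42.8 CPM in ATRX KD. ATRX KD libraries had no part in the choice of the gene, although the WT libraries did through the limit of 100 counts. There, *Decr1* rose by a log2 fold change of 1.36 ± 0.16 (SE, n = 2 libraries a group; adjusted p = 0.00151 by edgeR's quasi-likelihood test), a call that held in each alternative setting run. In ATRXΔRBR, a limit of 3 counts over both libraries makes the WT level at least 145-fold higher. This bound follows from the counts that chose the gene, covers counting error only, and is given as a description.

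*Bicd1* had 137 and 200 counts in WT cells, 0 and 0 in ATRXΔRBR cells, and 72 and 176 in ATRX KD cells. The corresponding levels were 10.3 and 16.9 CPM in WT and 7.95 and 8.10 CPM in ATRX KD. The groups did not overlap, but the WT libraries lay far apart. How many of all genes were without such overlap was not counted, so nothing is read from it. Between ATRX KD and WT its log2 fold change was −0.76 ± 0.25 SE and did not pass (edgeR quasi-likelihood adjusted p = 0.056). It passed without a filter on low counts (adjusted p = 0.00468) and without WT replicate 1 (log2 fold change −1.08, adjusted p = 2.46e-07), with −0.39 to −1.08 over the fits that left out a library. For ATRXΔRBR, the WT level was at least 104-fold higher by the limit of 3 counts over both libraries, a bound likewise set by the choice.

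*Mageh1* had 163 and 109 counts in WT and 0 in each of the other 4 libraries. In WT this was 12.2 and 9.19 CPM. The WT level was at least 83.8-fold higher than in ATRXΔRBR, a bound set by the choice of the gene. It was at least 111-fold higher than in ATRX KD. The ATRX KD difference passed the test over all genes (edgeR quasi-likelihood adjusted p = 0.000347). The WT counts behind this bound and this test also entered the choice of the gene, through the limit of 100. In this comparison the gene had enough counts to be tested through WT alone. Of the genes over 100 counts in each WT library, 17 were at 0 in both ATRX KD libraries, and 1 of them, *Mageh1*, was at 0 in both ATRXΔRBR libraries as well. WT libraries are shared by these comparisons, so the counts are not independent of each other.

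Per transcript length, *Mageh1* and *Decr1* were at about the same WT level and *Bicd1* was lowest. In TPM, *Mageh1* was at 16.5 and 13.5, *Decr1* at 11.5 and 13.4, and *Bicd1* at 2.66 and 5.81. *Mageh1* and *Decr1* differed by less than the gap between the libraries of *Mageh1*. In ATRX KD, *Decr1* was at 43.6 and 32.7 TPM and *Bicd1* at 2.94 and 4.74 TPM. *Bicd1* TPM overlapped between WT and ATRX KD, unlike its CPM. TPM divides by the effective length of the transcripts, which for *Bicd1* was 7175 and 5831 bases in WT and 6028 and 3785 bases in ATRX KD.

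**Figure D1:**
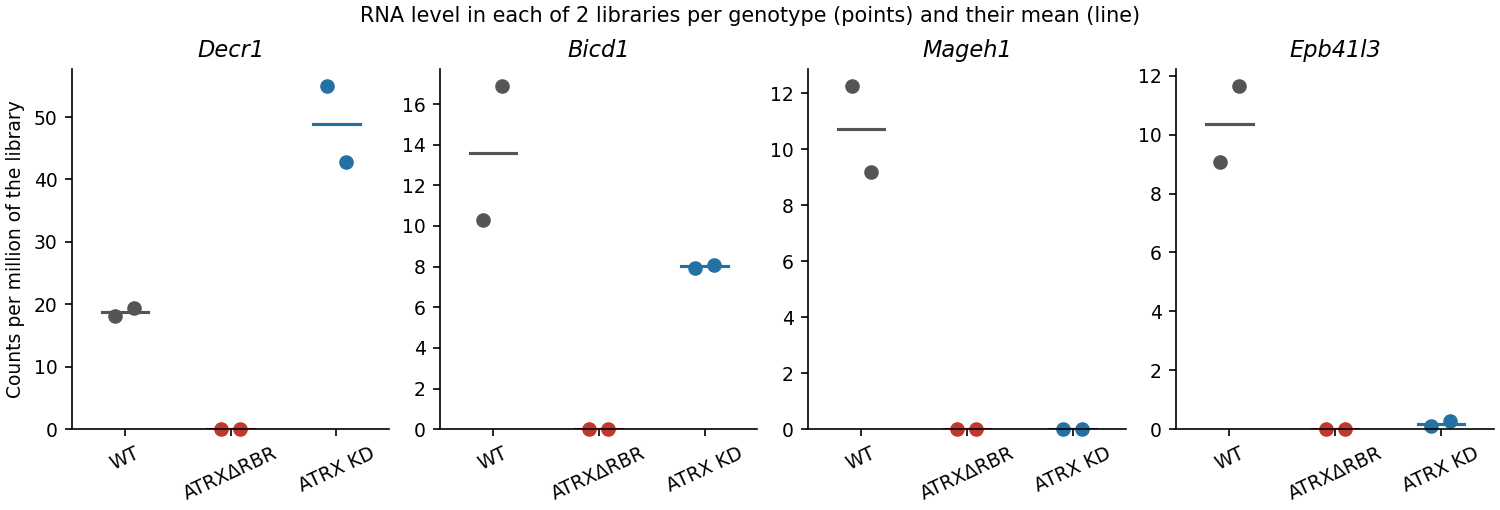
RNA level of the 3 genes and of *Epb41l3* in CPM (linear axis from 0, scaled for each gene) in WT (grey), ATRXΔRBR (red) and ATRX KD (blue), with a point per library and a line at the mean of 2 libraries. All 4 genes sit at 0 in ATRXΔRBR, while ATRX KD is above WT for *Decr1*, below WT for *Bicd1*, at 0 for *Mageh1* and near 0 for *Epb41l3*.

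*Epb41l3* had 121 and 138 counts in WT cells, 0 and 0 in ATRXΔRBR cells, and 1 and 6 in ATRX KD cells. Just under the limit, *Sulf1*, an extracellular heparan sulfate sulfatase, had 80.5 and 100 counts in WT, 0 in both ATRXΔRBR libraries, and 298 and 702 in ATRX KD. *Cpeb1*, an RNA-binding regulator of translation, had 71.0 and 84.6 counts in WT cells, 0 and 0 in ATRXΔRBR cells, and 0 and 5 in ATRX KD cells. *Shroom2*, *Lacc1* and *Sim2* were the next, with 55.0 to 69.0 counts in WT and 0 in ATRXΔRBR. On the other side of the limit, *Hebp2* had 129 and 103 counts in WT and 1 and 0 in ATRXΔRBR. *Hpse*, which encodes heparanase, had 166 and 195 in WT and 0 and 1 in ATRXΔRBR. *Usp13*, *Dnaja4* and *Dlk1* also had over 100 counts in each WT library, with 0 and 1, 0 and 1.77, and 1 and 1 counts in ATRXΔRBR. The 3 genes thus stood at the end of a series of genes with few or no ATRXΔRBR reads, and not apart from it.

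Among genes over 100 counts in each WT library, the profiles most like that of *Decr1* over the 6 libraries were those of *Hebp2* (Pearson r = 0.999 of log2(CPM + 1)), *Dnaja4* (0.998) and *Nrep* (0.998). For *Bicd1* they were *Snx11* (0.999), *Abi3bp* (0.998) and *Hpse* (0.998), and for *Mageh1* *mt-Rnr2* (0.996), *Tpgs2* (0.995) and *Dchs1* (0.993). With 6 libraries in 3 genotypes, r mostly reflects the 3 group levels and is given as a description. Likeness of shape did not mean likeness of size. *Snx11* was at 24.6 and 25.8 CPM in WT and at 18.1 and 18.0 CPM in ATRXΔRBR, whereas *Dchs1*, a large protocadherin, was at 17.3 and 19.0 CPM in WT, at 0.731 and 0.292 CPM with the deletion and at 0.442 and 0.644 CPM in ATRX KD.

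Most close relatives of the 3 genes were expressed in ATRXΔRBR. *Decr2*, the peroxisomal counterpart of *Decr1*, had 94.5 and 80.9 counts in WT cells, 132 and 159 in ATRXΔRBR cells, and 150 and 326 in ATRX KD cells. Its log2 fold change was 0.87 ± 0.23 SE in ATRXΔRBR, which did not pass (edgeR adjusted p = 0.0678), and 1.16 ± 0.18 SE in ATRX KD, which did (adjusted p = 0.00372). *Bicd2*, the paralog of *Bicd1*, was at 139 and 161 CPM in WT cells, 159 and 146 CPM in ATRXΔRBR cells, and 198 and 212 CPM in ATRX KD cells. Per transcript length, *Bicd2* was at 55.8 and 70.2 TPM in WT, far above *Bicd1*. Its ATRXΔRBR values did not separate from WT (log2 fold change 0.03 ± 0.17 SE, edgeR adjusted p = 0.953). It rose in ATRX KD (0.44 ± 0.12 SE, edgeR adjusted p = 0.0306), a call lost without either ATRX KD library (adjusted p = 0.178 and 0.315). *Bicdl1*, a related adaptor, was at 8.18 and 8.35 CPM in WT and 7.83 and 8.98 in ATRXΔRBR.

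Of the other MAGE genes, *Maged1*, *Maged2* and *Magee1* each had at least 45.0 CPM in both ATRXΔRBR libraries, and none was called there (edgeR adjusted p = 0.519, 0.36 and 0.388). *Maged1* was at 563 and 530 CPM in WT cells, 430 and 509 CPM in ATRXΔRBR cells, and 341 and 351 CPM in ATRX KD cells. It fell in ATRX KD (log2 fold change −0.68 ± 0.11 SE, edgeR adjusted p = 0.00456), as did *Maged2* (−0.47 ± 0.13 SE, adjusted p = 0.0301). Without ATRX KD replicate 1 or 2, the calls of *Maged1* (adjusted p = 0.0817 and 0.0599) and *Maged2* (0.377 and 0.153) were lost. *Magee1* did not pass in ATRX KD either (edgeR adjusted p = 0.803). *Ndn*, the imprinted necdin gene, had 6 and 3 counts in WT and 0 in the other 4 libraries, too few to be tested.

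To see whether the genes around the 3 loci changed with them, genes within 500 kb of either end were examined. Of 66 annotated neighbours, 18 were protein-coding, and 20 had enough counts to be tested in each comparison. In ATRXΔRBR, 3 of 20 tested neighbours passed, 1 higher and 2 lower, or 15.0%. Of all 16334 genes tested, 6.85% were called, 2.79% higher and 4.07% lower. In ATRX KD, 9 of 20 passed, 2 higher and 7 lower, or 45.0%, against 33.0% of all 16785 genes tested, 15.2% higher and 17.8% lower. WT libraries are shared by both comparisons.

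*Decr1* had the nearest expressed neighbour. *Nbn*, which encodes the nibrin subunit of the MRE11 DNA repair complex, starts 12418 bp away and runs in the opposite direction. *Nbn* was at 60.5 and 76.7 CPM in WT cells, 46.9 and 42.8 CPM in ATRXΔRBR cells, and 96.9 and 97.2 CPM in ATRX KD cells. The ATRXΔRBR level did not pass (log2 fold change −0.61 ± 0.19 SE, edgeR adjusted p = 0.113), whereas *Nbn* rose in ATRX KD (0.49 ± 0.14 SE, adjusted p = 0.0348). That call was lost without either ATRX KD library (adjusted p = 0.19 and 0.207). Thus *Nbn* stayed expressed in the libraries that had no *Decr1* RNA. *Osgin2*, at 51614 bp, did not pass in either comparison (edgeR adjusted p = 0.451 and 0.143). *Ripk2*, a kinase of NOD-receptor signaling at 177226 bp, was at 46.9 and 60.5 CPM in WT cells, 31.4 and 28.6 CPM in ATRXΔRBR cells, and 28.9 and 28.6 CPM in ATRX KD cells. It fell by 0.83 ± 0.20 SE on the log2 scale in ATRXΔRBR (edgeR adjusted p = 0.0441) and by 0.91 ± 0.15 SE in ATRX KD (adjusted p = 0.00512). The ATRXΔRBR call was lost without WT replicate 2 or without ATRXΔRBR replicate 2 (adjusted p = 0.133 and 0.153), and with at least 10 counts in every library (0.0531). No tested neighbour lay on the other side of *Decr1* within 500 kb.

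None of the 10 tested neighbours of *Bicd1* was called in ATRXΔRBR by edgeR, and none by DESeq2, and 1 had an unadjusted p under 0.05. They lay on the side of the *Bicd1* start, except for 1 inside the gene. *Resf1*, a regulator of silencing of endogenous retroviruses at 73223 bp, was at 150 and 163 CPM in WT cells, 170 and 129 CPM in ATRXΔRBR cells, and 174 and 172 CPM in ATRX KD cells, with no call. The nearest tested neighbour outside *Bicd1* was the pseudogene *Gm15784* at 45739 bp, with 1 to 11 counts a library. *Gm15785*, a pseudogene inside *Bicd1* on the other strand, had 2 and 4 counts in WT and 1.21 and 3 in ATRXΔRBR. *Etfbkmt*, a mitochondrial lysine methyltransferase gene at 257715 bp, had 48 and 42 counts in WT cells, 13 and 21 in ATRXΔRBR cells, and 8 and 24 in ATRX KD cells. Its ATRXΔRBR value did not pass (log2 fold change −1.29 ± 0.35 SE, edgeR adjusted p = 0.0726), and in ATRX KD it fell (−1.82 ± 0.35 SE, adjusted p = 0.00824). *Amn1* and *Sinhcaf*, the latter with at most 18 counts a library, also fell in ATRX KD (log2 fold changes −0.78 and −2.00, edgeR adjusted p = 0.0214 and 0.0491). Both calls were lost without ATRX KD replicate 1 (adjusted p = 0.157 and 0.144), and that of *Sinhcaf* with DESeq2 (0.129). The log2 fold change of *Sinhcaf* was −1.55 without ATRX KD replicate 1 and −3.50 without ATRX KD replicate 2. *Dennd5b* did not pass in either comparison.

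The neighbours of *Mageh1* included both a gene that disappeared and a gene that rose. *Shroom2*, an actin-binding regulator of cell shape at 266701 bp, had 63 and 69 counts in WT and 0 in all 4 other libraries, the pattern of *Mageh1* itself. Its WT level was at least 40.7-fold higher than in ATRXΔRBR and at least 53.8-fold higher than in ATRX KD, and both differences passed (edgeR adjusted p = 0.00136 and 0.000671). *Klf8*, a Krüppel-like transcription factor gene at 199891 bp on the other side, had 33 and 36 counts in WT cells, 122 and 117 in ATRXΔRBR cells, and 48.8 and 114 in ATRX KD cells. It rose by a log2 fold change of 1.95 ± 0.31 SE in ATRXΔRBR (edgeR adjusted p = 0.00935) and of 0.94 ± 0.27 SE in ATRX KD (adjusted p = 0.0353). The ATRX KD call was lost with DESeq2 (0.126) and without either ATRX KD library (0.147 and 0.146). *Rragb*, a Rag GTPase gene of the amino acid sensing pathway at 102406 bp and the nearest on that side, had 130 and 128 counts in WT and 112 and 140 in ATRXΔRBR, and did not pass in either comparison. *Gm6472*, the nearest on the *Shroom2* side, was not called either. *Ubqln2*, a ubiquilin gene at 460652 bp, and the pseudogene *Gm7158*, whose reads may be shared with its parent gene, fell in ATRX KD (−0.93 ± 0.21 and −1.27 ± 0.25 SE, edgeR adjusted p = 0.016 and 0.00845). The *Ubqln2* value moved to −0.57 without WT replicate 1. In ATRXΔRBR they were at log2 fold changes of 0.02 and 0.07. Genes on both sides of *Mageh1* therefore had reads in ATRXΔRBR.

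**Figure D2:**
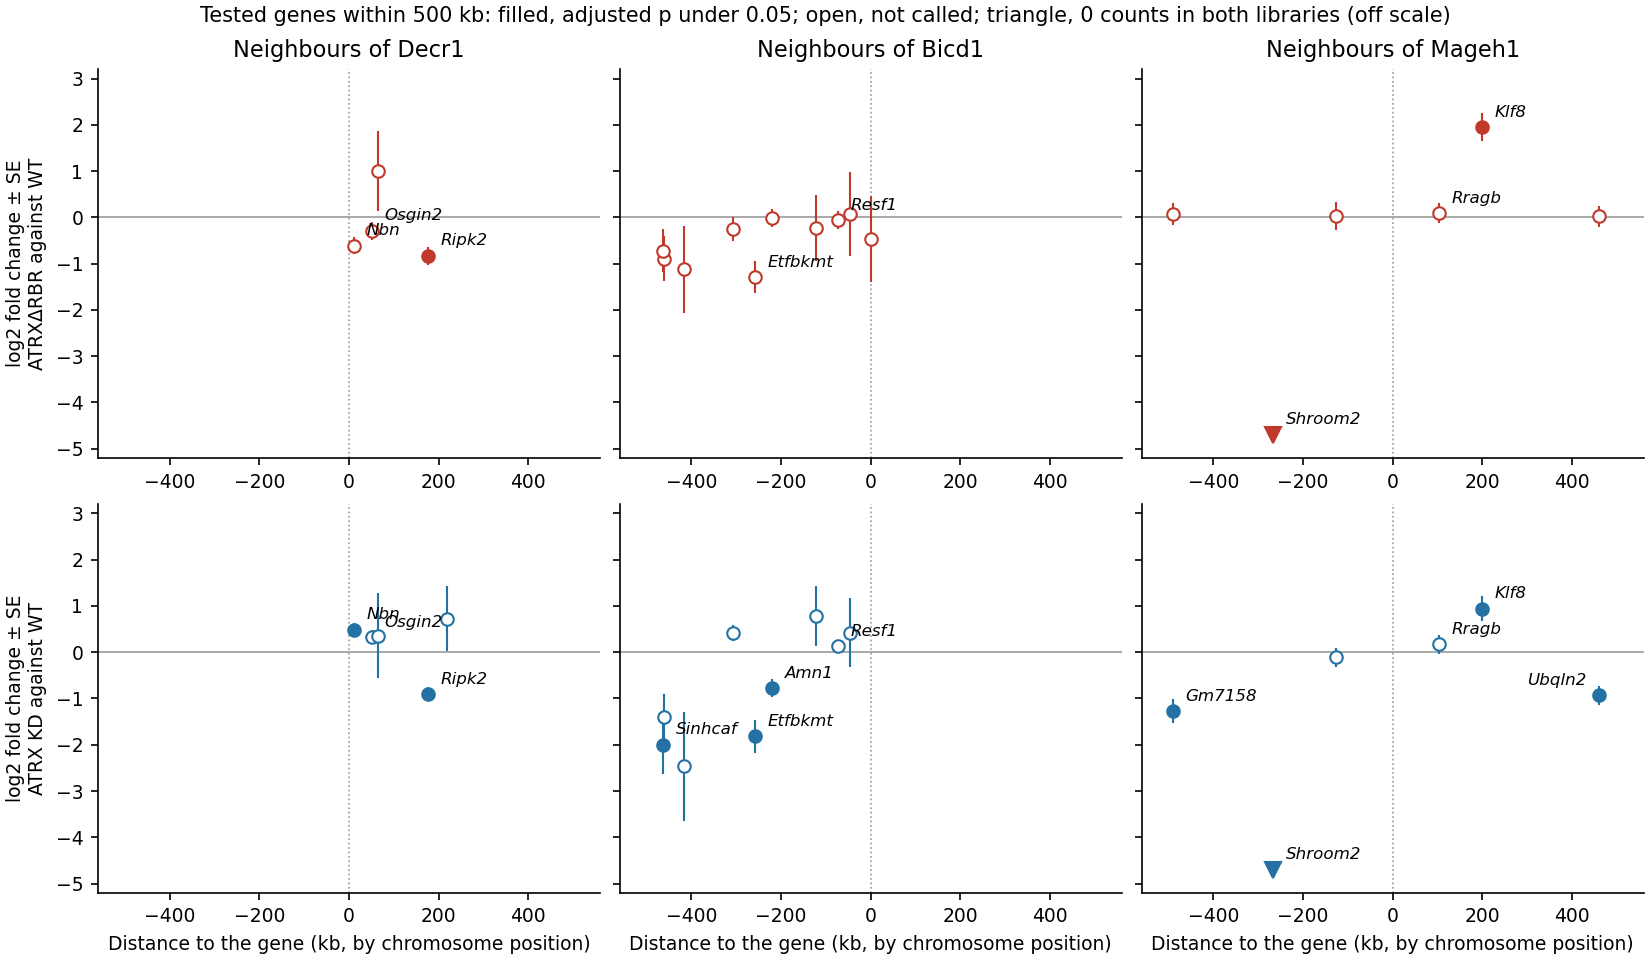
Log2 fold change ± SE of each tested neighbour within 500 kb, by its distance from the gene in kb along the chromosome, in ATRXΔRBR (top) and ATRX KD (bottom) against WT. Filled points passed the test, open points did not, and triangles mark *Shroom2*, which had 0 counts in both libraries and is drawn off scale. Around *Bicd1* in ATRXΔRBR all points are open, and around *Mageh1* *Klf8* is high while *Shroom2* is at 0.

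CUT&RUN lists were then examined for ATRX, EZH2 and H3K27me3 peaks over the 3 genes. Peaks had been called in each library separately, and the lists differed in size. The H3K27me3 lists held 36011 and 38832 peaks in WT cells, 38651 and 33105 in ATRXΔRBR cells, and only 7241 and 6336 in ATRX KD cells, so an absent peak says little in ATRX KD. Among the 9477 genes over 100 counts in each WT library that the annotation places, a H3K27me3 peak within 2 kb of the transcription start site (TSS) was present in 3.07% and 3.53% in WT cells, 5.71% and 5.16% in ATRXΔRBR cells, and 1.54% and 1.33% in ATRX KD cells. EZH2 peaks were common at such starts, in 84.2% and 78.1% in WT cells, 87.0% and 57.7% in ATRXΔRBR cells, and 31.8% and 41.7% in ATRX KD cells. ATRX peaks were present at 23.2% and 11.1% in WT and 27.2% and 9.39% in ATRXΔRBR. The ATRX lists did not group by genotype, since 66.7% of the peaks of ATRXΔRBR replicate 2 had a counterpart in WT replicate 2 and 42.9% in ATRXΔRBR replicate 1. In reverse, 66.8% of the peaks of WT replicate 2 and 32.7% of those of ATRXΔRBR replicate 1 had a counterpart in ATRXΔRBR replicate 2.

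At *Decr1*, H3K27me3 peaks at or near the start were listed in ATRXΔRBR and in no other genotype. In ATRXΔRBR replicate 1, a peak of 1735 bp ran from −857 to 877 bp relative to the TSS, at a fold enrichment of 3.21 (−log10 q 1.35), and a peak of 521 bp lay farther upstream at −4484 to −3964 bp. In replicate 2, a peak of 3119 bp ran from −4130 to −1012 bp, at a fold enrichment of 3.44 (−log10 q 1.63). The replicate 2 peak overlapped the farther peak of replicate 1 and stopped short of the TSS. Both WT and both ATRX KD lists had no peak in the gene or within 10 kb, and their nearest peaks to the TSS were 43359 and 43274 bp away in WT. A peak within 2 kb of the TSS in both ATRXΔRBR lists and in neither WT list was found for 233 of 9477 such genes, or 2.46%. None of the ATRXΔRBR peaks within 10 kb of *Decr1* had a q of 0.01 or less.

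Wider H3K27me3 peaks lay farther upstream of *Decr1*, past *Nbn* and the start of *Osgin2*. ATRXΔRBR replicate 1 had H3K27me3 peaks of 6164, 4280 and 2148 bp between −89840 and −69589 bp. Replicate 2 had 4 peaks of 376 to 4186 bp between −83075 and −69488 bp. Neither WT list had a peak within 100 kb on that side, and these peaks came to within 1208 and 1107 bp of the *Osgin2* TSS. *Osgin2* RNA, however, did not pass the test in ATRXΔRBR. Downstream of *Decr1*, a H3K27me3 peak at about the same place was in both WT and both ATRXΔRBR lists, from 43359 to 48352 bp and 43274 to 48832 bp in WT and from 44008 to 47014 bp and 43816 to 48583 bp in ATRXΔRBR.

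EZH2 was not listed at the *Decr1* start where H3K27me3 was. The only EZH2 peak within 2 kb of the TSS was in WT replicate 1, from −10 to 200 bp with a −log10 q of 2.90. All 6 EZH2 lists had a peak that came to within 12160 to 12514 bp upstream of the *Decr1* TSS, at the start of *Nbn*, and all had a peak at the start of *Osgin2*. No ATRX list had a peak in *Decr1* or within 10 kb. ATRXΔRBR replicate 1 had an ATRX peak at the *Nbn* start, from −12890 to −12123 bp of the *Decr1* TSS.

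At *Bicd1*, no peak of any of the 16 lists lay within 5 kb of the TSS. Of the genes over 100 counts in each WT library, 860 of 9477, or 9.07%, likewise had no EZH2 peak within 2 kb of the TSS in any of the 6 EZH2 lists. The whole gene, 154444 bp long, held no EZH2 and no ATRX peak in any of those 10 lists, which was true of 18 of 1215 such genes of 100 kb or more, or 1.48%. H3K27me3 was listed inside the gene in ATRXΔRBR and nowhere near it in WT. The nearest H3K27me3 peak to the *Bicd1* TSS was 962107 and 961737 bp away in the WT lists, 963937 and 963769 bp in the ATRX KD lists, and 43320 and 27367 bp in the ATRXΔRBR lists. Replicate 1 of ATRXΔRBR had 3 peaks covering 3290 bp of the gene and replicate 2 had 1 of 1051 bp. They did not overlap each other, and none had a q of 0.01 or less. A peak in the gene in both ATRXΔRBR lists and in neither WT list was found for 69 of 1215 genes of 100 kb or more, or 5.68%.

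At *Mageh1*, the order was the opposite, with H3K27me3 peaks on both sides of the start in WT, where the gene was expressed, and none in ATRXΔRBR, where it was not. WT replicate 1 had peaks from −3611 to −1450 bp and from 859 to 2508 bp, and WT replicate 2 from −3887 to −1718 bp and from 90 to 1651 bp. They had fold enrichments of 3.27 to 3.64 and −log10 q of 1.59 to 2.02. In ATRXΔRBR, the nearest H3K27me3 peaks were 25713 and 25473 bp from the TSS, and neither list had a peak in the gene or within 10 kb. Peaks within 2 kb of the TSS in both WT lists and in neither ATRXΔRBR list were found for 74 of 9477 such genes, or 0.781%. In ATRX KD, replicate 1 had a peak from 960 to 1896 bp, at a fold enrichment of 2.40 (−log10 q 1.62). Replicate 2 had a peak from −3617 to −3286 bp, at a fold enrichment of 2.24 (−log10 q 1.04), outside the window of 2 kb. These peaks lay on opposite sides of the TSS and did not overlap. *Mageh1* thus had a weaker listed H3K27me3 peak, at a different place in each list, within 10 kb in ATRX KD. It had none there in ATRXΔRBR, and no RNA in either. Reads from the active and the inactive X chromosome were not separated in these lists.

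Farther from *Mageh1*, H3K27me3 was listed in both genotypes. Upstream, each WT list had a peak of 8737 or 8924 bp, from −102227 to −93491 bp or from −102248 to −93325 bp, with smaller peaks nearer the gene. The ATRXΔRBR lists had a peak of 19635 or 19326 bp, from −102165 to −82531 bp or from −101585 to −82260 bp. It spanned a stretch in which the WT lists held several separate peaks. Smaller peaks lay nearer the gene in the ATRXΔRBR lists too. An EZH2 peak over the *Mageh1* start was in WT replicate 2 alone, from −171 to 526 bp with a −log10 q of 1.73. The only ATRX peak within 100 kb was in WT replicate 1, 7244 bp downstream of the TSS.

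**Figure D3:**
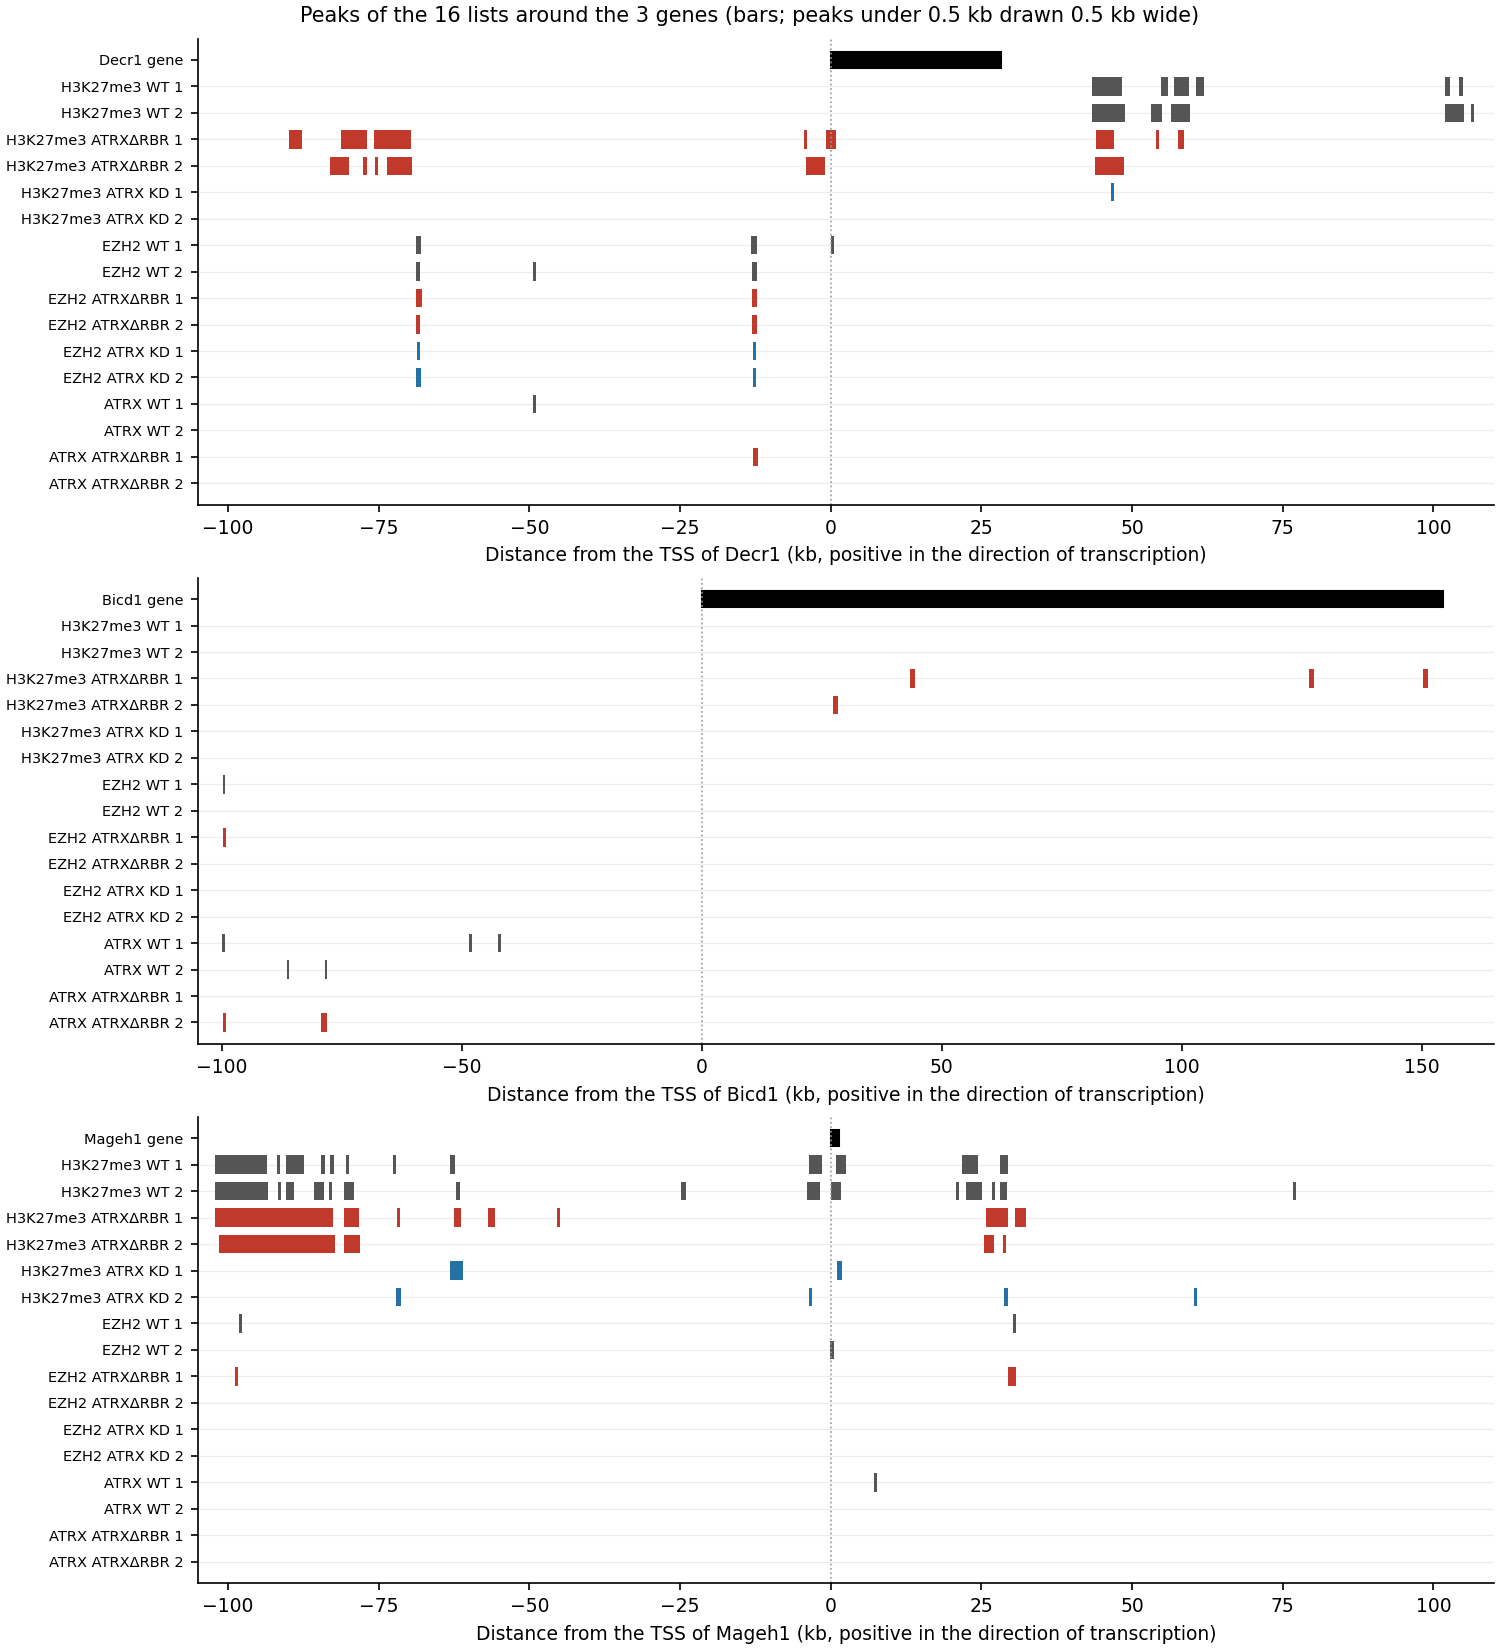
Peaks (bars) of the 16 lists by distance from the TSS in kb, positive in the direction of transcription, with a row per list and the gene as a black bar, in WT (grey), ATRXΔRBR (red) and ATRX KD (blue). H3K27me3 appears over the *Decr1* start (ATRXΔRBR replicate 1) or upstream of it (replicate 2), and inside *Bicd1*, in the ATRXΔRBR rows alone. It flanks the *Mageh1* start in both WT rows but in neither ATRXΔRBR row.

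The neighbours with the clearest RNA differences, and *Rragb*, whose RNA did not pass in either comparison, were read in the same lists. *Shroom2*, at 0 in ATRXΔRBR and ATRX KD, had 13 and 22 H3K27me3 peaks covering 14819 and 25866 bp of the gene in WT cells, 2 and 2 covering 2069 and 2177 bp in ATRXΔRBR cells, and 0 and 1 in ATRX KD cells. It had an EZH2 peak at its TSS in all 6 EZH2 lists. *Klf8*, which rose in ATRXΔRBR, had 1 and 5 H3K27me3 peaks covering 264 and 3906 bp in WT, and 1 and 0 in ATRXΔRBR. *Rragb* had 2 and 2 H3K27me3 peaks covering 618 and 2201 bp of the gene in WT, and 0 and 0 in ATRXΔRBR. Each of these lists had a peak within 2 kb of the *Rragb* TSS. Fewer listed H3K27me3 peaks in ATRXΔRBR were thus not limited to neighbours whose RNA changed, and the share over all genes was not counted. *Epb41l3* had no H3K27me3 peak in the gene in any list, and the nearest to its TSS was 199727 and 199063 bp away in WT and 321786 and 321667 bp in ATRXΔRBR.

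The pathways of the 3 genes were examined in lists of known members, counted without the 3 genes. In ATRXΔRBR few list genes were called in the main fit. Of 37 tested genes of fatty acid β-oxidation, 3 passed, or 8.11%, near the 6.85% of all genes. *Ech1*, an isomerase that like *Decr1* acts on unsaturated fatty acids, rose from 233 and 226 counts in WT to 287 and 518 (log2 fold change 0.90 ± 0.19 SE, edgeR adjusted p = 0.0326), a call lost without WT replicate 1 or without ATRXΔRBR replicate 2 (adjusted p = 0.0711 and 0.138). *Acox2*, a peroxisomal oxidase of branched-chain substrates, rose from 5 and 5 to 23 and 31 counts (2.52 ± 0.47 SE, edgeR adjusted p = 0.0179), a call lost with DESeq2 (adjusted p = 0.0557). *Cpt1c*, a brain-type carnitine palmitoyltransferase homolog, fell from 259 and 218 to 24 and 49 counts (−2.61 ± 0.26 SE, edgeR adjusted p = 0.00108). The list's median log2 fold change was 0.17, against −0.02 over all genes tested.

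Of 39 tested genes of dynein, dynactin and their adaptors, 1 passed in ATRXΔRBR, or 2.56%, with a list median of −0.03. *Dync1i1*, a dynein intermediate chain expressed mainly in neurons, had 8 and 11 counts in WT and 0 in the other 4 libraries, and fell in both comparisons (edgeR adjusted p = 0.0379 and 0.0133). Its ATRXΔRBR call was lost with DESeq2 (adjusted p = 0.0883) and without ATRXΔRBR replicate 2 (0.0747), and without WT replicate 2, or with at least 10 counts in every library, it had too few counts to be tested. The MAGE list also holds partner genes outside the family, so its values are not those of the family alone. None of its 8 tested genes was called in ATRXΔRBR by edgeR or DESeq2, none had an unadjusted p under 0.05, and their median was −0.27. Many MAGE genes are testis-restricted, and most of those listed had too few counts to test.

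In ATRX KD more genes of the same lists were called in the main fit, as were more of all genes. The size of this contrast depended on the setting. With libraries of opposite number as a block (the crossed block), 34.2% of all genes were called in ATRXΔRBR and 38.5% in ATRX KD. List genes called were then 32 and 45. Of 38 tested β-oxidation genes, 18 passed, or 47.4% against 33.0% of all genes, 13 higher and 5 lower, with a median of 0.23 against −0.02 over all genes. The largest were *Ppara*, a nuclear receptor that activates fatty acid oxidation genes, with 1 and 0 counts in WT and 11 and 22 in ATRX KD (edgeR adjusted p = 0.0104), *Cpt1a*, the carnitine palmitoyltransferase of the outer mitochondrial membrane (log2 fold change 1.27 ± 0.13 SE, adjusted p = 0.000717), *Acsl3* (−1.18 ± 0.13 SE, adjusted p = 0.00122) and *Decr2*. The log2 fold change of *Ppara*, 4.50, moved to 6.97 without WT replicate 1. *Decr1*, at 1.36, lay beside *Cpt1a* in this comparison.

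Of 40 tested dynein and adaptor genes, 18 passed in ATRX KD, or 45.0%, 14 higher and 4 lower, with a median of 0.09. Of all genes tested, 33.0% passed, 15.2% higher and 17.8% lower. *Dync1h1*, the heavy chain of cytoplasmic dynein, rose from 350 and 412 CPM in WT to 1046 and 1138 CPM (edgeR adjusted p = 0.000358). *Dynlt1b* rose from 0 and 1 to 4 and 23 counts (log2 fold change 4.05, edgeR adjusted p = 0.0285). With DESeq2 that call was lost (adjusted p = 0.0945), without WT replicate 2 the value was 6.58, and without ATRX KD replicate 2 the gene had too few counts to be tested. *Capza1*, a capping subunit that dynactin also contains, fell (−1.30 ± 0.21 SE, edgeR adjusted p = 0.00427), and *Dync1i1* was at 0. Of 9 tested genes of the MAGE list, 5 passed, or 55.6% against 33.0% of all genes. All 5 were lower, against 17.8% of all genes, and the list median was −0.45. The 5 genes were *Maged1*, *Maged2*, *Nsmce3*, which encodes a subunit of the SMC5/6 complex (−0.64 ± 0.19 SE), and the ubiquitin ligase genes *Trim27* (−0.58 ± 0.15 SE) and *Pja1* (−0.45 ± 0.12 SE), with edgeR adjusted p between 0.00456 and 0.0363. All 5 calls were lost without ATRX KD replicate 1 and, likewise, without replicate 2. For *Nsmce3*, *Trim27* and *Pja1*, the adjusted p were then 0.242, 0.179 and 0.283, and 0.058, 0.107 and 0.303.

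**Figure D4:**
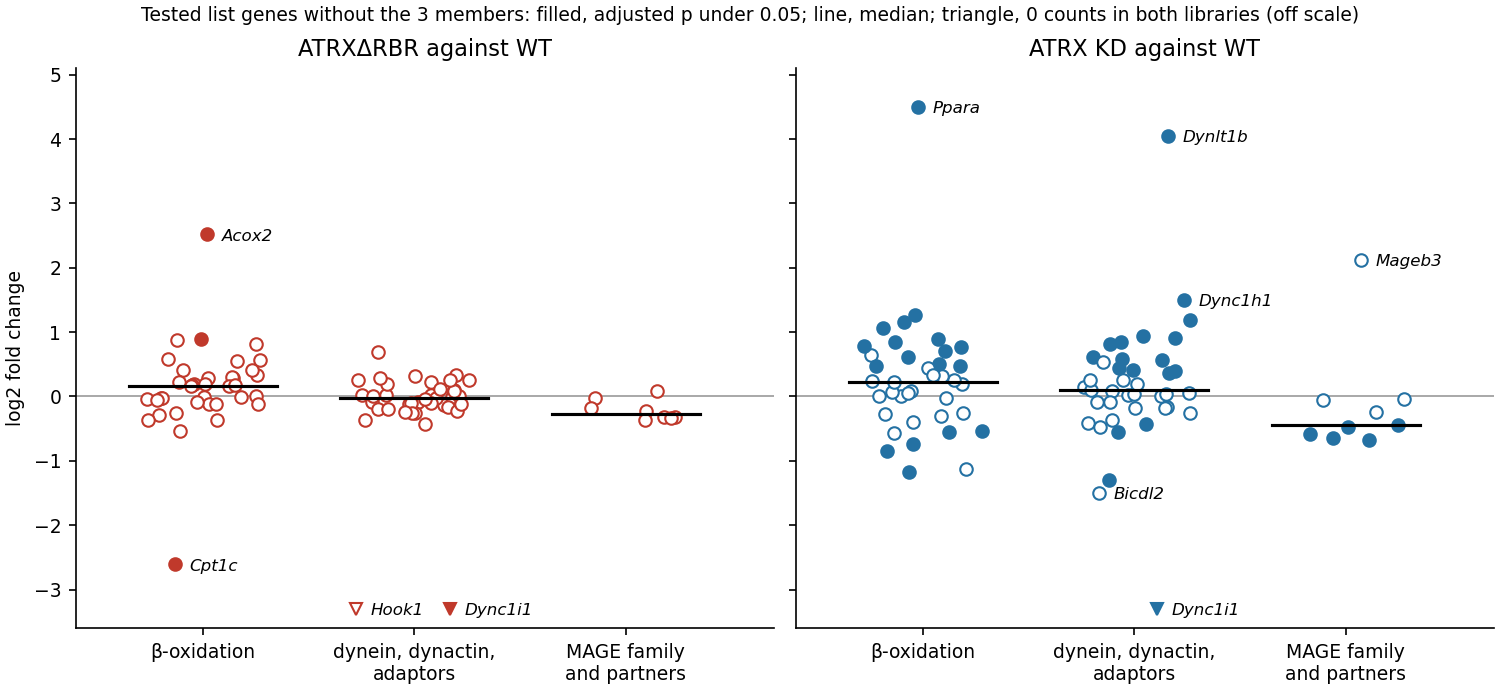
Log2 fold change of the tested genes of the 3 lists, without *Decr1*, *Bicd1* and *Mageh1*, in ATRXΔRBR (left, red) and ATRX KD (right, blue) against WT. Filled symbols passed the test, open symbols did not, lines are list medians, and triangles mark genes with 0 counts in both libraries, drawn off scale. Few symbols are filled on the left, and the genes of the MAGE list that passed on the right are all below 0.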

How the data were processed

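RNA-Seq came from poly(A) RNA. IgG controls of CUT&RUN were not used here. The authors aligned reads to mm10 with STAR, and the deposited estimated counts, TPM and FPKM per gene are those of RSEM (FPKM was not used). For CUT&RUN, the authors used Bowtie2 for mapping and MACS2, in its broad mode and a library at a time, for peaks. The deposited lists give a fold enrichment (ratio over local background), −log10 p, −log10 q and a score per peak, of which the score and −log10 p were not used. Reads per library are not given for the lists, only a range over all samples. No strand setting of the counting is given in the sources used here.

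Counts were rounded. Genes with more than 10 in total over a comparison's 4 libraries were tested by edgeR 4.0.16 (R 4.3.3) with TMM and the quasi-likelihood test. They were called at a Benjamini-Hochberg adjusted p under 0.05. The fit was also run on simulated counts with independent noise, a fixed dispersion and 4-fold changes, of which it recovered 100%. Simulated libraries shared no deviations, so that run does not give the error rate in the real libraries. CPM were scaled by the library total, without TMM. A fold against a group at 0 used a limit of 3 counts over the group, for counting error only. Pearson r used a pseudocount of 1 CPM. Peaks were placed on GENCODE M21 genes with the outermost start as TSS and a window of 2 kb, where 1 bp of overlap sufficed. Alternatives were DESeq2 1.42.0, its size factors in edgeR, other count filters, all 6 libraries in a fit, the replicate number as a block, each library left out, and other distances and peak limits.

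Named were the 3 genes, their relatives, *Atrx*, expressed, nearest and called neighbours, at most the 4 largest called genes of each list per comparison, the genes around the count limits, and the 3 most alike in profile. The fifth called gene of the MAGE list was named after its values were seen. The genes and the lists were chosen with earlier results of these data known.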

Additional observations from a re-analysis of the deposited data

How the results depend on the processing

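Counts of calls rested on few genes. Neighbours called in ATRXΔRBR numbered 3, and 1 with at least 10 counts in every library (a filter that removes *Shroom2*), 5 with all 6 libraries in a fit, 5 within 1 Mb and 5 with the crossed block. Leaving out a library gave 2 to 3. For ATRX KD, 9 became 4 within 250 kb and 15 within 1 Mb, and 6 to 13 without a library. List genes called in ATRXΔRBR numbered 4, and 2 with DESeq2, 2 with at least 10 counts in every library, 9 with all 6 libraries and 32 with the crossed block, and 3 to 4 without a library. In ATRX KD they numbered 41, and 18 to 60 without a library, of which 20 without ATRX KD replicate 1 and 18 without replicate 2. The members called in ATRX KD numbered 2, and 2 to 3 without a library. Among all genes, calls in ATRXΔRBR rose from 1119 to 1979 without a filter, 1738 with all 6 libraries and 5585 with the crossed block, and fell to 597 with at least 10 counts in every library. In ATRX KD the 5538 calls became 3525 without ATRX KD replicate 1, 3193 without replicate 2, and 8947 without WT replicate 2. The causes were not tested.

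Same-numbered libraries did not deviate together (r = −0.736 between WT and ATRXΔRBR and −0.147 between WT and ATRX KD, over 10233 genes). With the replicate number as a block, 1071 genes were called in ATRXΔRBR and 5792 in ATRX KD. The block ended the calls of *Ripk2* and *Ech1* in ATRXΔRBR (adjusted p = 0.112 and 0.0773) and of *Pja1* in ATRX KD (0.053), and added a call of *Bicd1* in ATRX KD (adjusted p = 0.0132). The crossed block was added after seeing those deviations.

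Lists with a peak within 2 kb of the TSS numbered 3 for *Decr1* and 4 for *Mageh1*, and 1 and 1 at a q of 0.01 or less. Lists with a peak in the gene or 10 kb of flank numbered 3, 2 and 6 for *Decr1*, *Bicd1* and *Mageh1*, and 1, 0 and 2 at that q, and for *Decr1* 12 with 20 kb of flank, which takes in the start of *Nbn*. An absent peak shows little where a list is short, as for H3K27me3 in ATRX KD.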
